A study of Mus musculus with 28 samples.

Results

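The comparison described here set the mouse sciatic nerve on postnatal day 1 (P1) against the same nerve at the late embryonic stage labelled E17, across all genes. The study's methods give that stage as E17.5. It used 8 of the 28 libraries of a bulk RNA sequencing timeline with 7 stages and 4 libraries per stage, namely the 4 libraries labelled P1 and the 4 labelled E17, and was chosen by stage label and not by any measured value. The question it addresses is which transcripts change in the nerve over the days around birth, when myelination starts. All mice were C57BL/6J, were not perfused and received no treatment. Each E17 library was made from sciatic nerves pooled from 2 embryos of the same sex, and each P1 library from the sciatic nerves of 1 mouse. The samples of a stage came from both sexes, but the single libraries carry no label of sex. Epineurium and perineurium, the outer sheaths of the nerve, had been stripped off mechanically at both stages, as far as that was possible, to enrich for the endoneurium, the compartment that holds axons and Schwann cells. The stages therefore differ in age, in birth itself and in how many animals went into a library, and these cannot be told apart here.

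Schwann cells are the glia of peripheral nerves. Immature Schwann cells first surround bundles of axons, sort out the large ones and take each into a 1:1 relation as pro-myelinating cells, and then leave the cell cycle and wrap the axon in myelin. The switch is driven by the transcription factors Sox10, Pou3f1 (Oct6) and Egr2 (Krox20) downstream of axonal neuregulin and of the receptor Adgrg6, and myelin itself is a lipid-rich membrane whose assembly needs large amounts of cholesterol, galactolipids and a small set of membrane proteins. Birth at the same time changes oxygen, hormones and nutrition, since the newborn goes from placental glucose to fat-rich milk.

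Total counts ran from 13899895 to 22612205 per E17 library and from 23114114 to 30953982 per P1 library. P1 replicate 1 stood apart from the other P1 libraries. The median absolute log2 difference of its genes from the mean of the other 3 was 0.31. It was 0.137 to 0.185 for the other P1 libraries and 0.113 to 0.134 for those of E17. GC content accounted for 63.6% of the variance of its genes' deviations from the mean of the other 3. That share was 43.4% and 52.1% for P1 replicates 3 and 4, whose slopes on GC had the opposite sign, and 7.1% for replicate 2. For these libraries the other 3 include replicate 1. Counts that matter are therefore also given without P1 replicate 1. The labelled tissue was checked with markers of the Schwann cell lineage, and all 7 were measured in every library: Sox10, the lineage's master regulator, had a mean of 326 ± 24.2 CPM in the E17 libraries and of 354 ± 98.2 CPM in those of P1 (log2 0.12 ± 0.28, adjusted p = 0.8), and the neuregulin receptor Erbb3 was at 853 ± 30.2 and 919.6 ± 14.8 CPM. In the same list 2 genes rose (28.6% of its members), the calcium-binding protein S100b (43.5 ± 2.05 to 114 ± 6.23 CPM, log2 1.40 ± 0.13, adjusted p = 4.5e-09) and the receptor Gpr37l1 (9.98 ± 0.977 to 53.0 ± 11.1 CPM, log2 2.41 ± 0.19, adjusted p = 8.5e-11). Values in CPM are counts brought to a common library total, with library sizes scaled by TMM (trimmed mean of M values), and are given as mean ± SD with n = 4 libraries. They are shares of a library and do not account for gene length. Log2 fold changes, P1 minus E17, are given ± SE, and adjusted p-values are those of edgeR's quasi-likelihood test over all genes tested.

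Between E17 and P1, 2074 of 17700 genes tested (11.7%) were called, that is, had an adjusted p under 0.05 and a fold change of at least 2. Of these, 1116 genes (6.31% of those tested) were higher and 958 (5.41%) lower at P1. The rises were the larger changes: their median size was 1.76 on the log2 scale, and 115 of them had a log2 change of at least 4, against a median of 1.43 and 36 such genes among the falls. The 4 P1 libraries and the 4 E17 libraries did not overlap for 6768 genes tested (38.2%), and for 1023 of the genes called higher (91.7%) and 843 of those called lower (88%). Without P1 replicate 1, 2097 genes were called, and 1845 of them were among the 2074. The balance of rises and falls depended on the scaling: 53.8% of the called genes were higher at P1 with TMM and 43% with library size alone, which moved the median log2 change of all genes from 0.00 to -0.11. Of 576 genes of long intergenic RNAs tested, 11.6% were higher and 7.47% lower, and of 15172 protein-coding genes 864 were higher and 822 lower, a difference that was not tested. In bulk tissue, fewer cells of a type and less RNA per cell cannot be told apart, and this holds for each fall and rise given here.

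**Figure D1:**
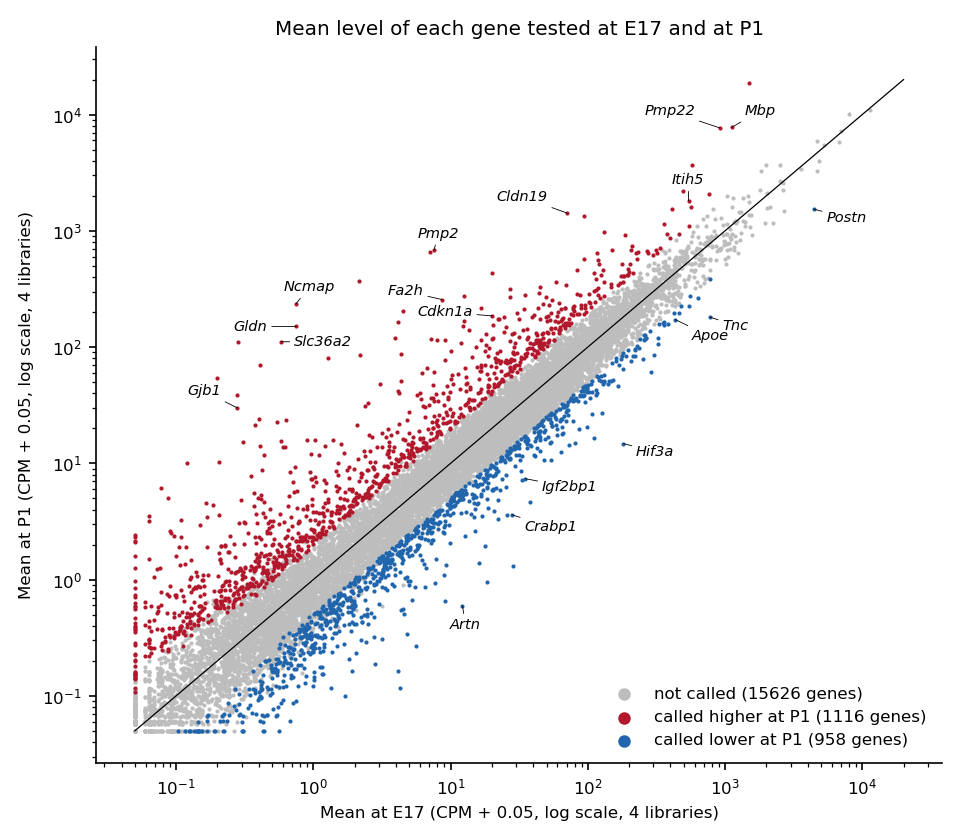
Mean CPM of each of the 17700 genes tested at E17 (horizontal axis) and at P1 (vertical axis), both on a log scale after adding 0.05; the line marks equal levels. The 1116 genes called higher at P1 (red) reach further from the line than the 958 called lower (blue), with Ncmap, Gldn, Slc36a2 and Gjb1 under 1 CPM at E17.

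Among called genes with a mean of 10 CPM or more at one of the stages, a library with over 3 counts at both stages and no overlap between the stages, the 12 largest rises included genes of the myelinating Schwann cell, several transporters and signalling genes, with Slc9a3 and Rasgef1a the largest. Gldn (chromosome 9, 54286486 to 54341786, plus strand, protein-coding) encodes gliomedin, the Schwann cell ligand that clusters sodium channels at the node of Ranvier. It was at 0.385, 0.634, 0.466 and 1.3 CPM in the 4 E17 libraries and at 155, 171, 115 and 159.9 CPM at P1 (log2 7.80 ± 0.23, adjusted p = 1.5e-19). Slc36a2 (chromosome 11, 55158470 to 55185077, minus strand), a proton-coupled transporter of small amino acids, was between 0.330 and 0.691 CPM at E17 and between 92.5 and 128 CPM at P1 (log2 7.71 ± 0.20). Gjb1 (chromosome X, 101376378 to 101385629, plus strand), the gap junction protein connexin 32 of non-compact myelin, had no count in 1 E17 library and 0.272 to 0.330 CPM in the others, and stood at 22.9, 31.5, 29.8 and 35.6 CPM at P1 (log2 7.0 ± 0.29). That the stages did not overlap for these genes follows from the rule that chose them.

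Emid1 (chromosome 11, 5106265 to 5152257, minus strand), which encodes a secreted EMI domain protein, went from 1.65 to 2.95 CPM at E17 to 200.4, 422, 382 and 480.1 CPM at P1 (log2 7.47 ± 0.31), with P1 replicate 1 the lowest. Further rises were those of Ddn (log2 7.59 ± 0.22), of the SEC14-family lipid-binding gene Sec14l5 (7.52 ± 0.30), of the lipid transporter Abca12 (6.08 ± 0.41) and of the small GTPase Rit2 (5.91 ± 0.45). Larger ones were those of the sodium-proton exchanger Slc9a3 (8.87 ± 0.31), of the exchange factor Rasgef1a (8.55 ± 0.28) and of the myelin membrane gene Ncmap (8.39 ± 0.26). Pmp2, a fatty acid binding protein of compact myelin, completed the 12, with 5.82 to 11 CPM at E17 and 553 to 749.9 CPM at P1 (log2 6.51 ± 0.21). An overlapping gene model on its strand, Gm37389, makes its count uncertain.

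The 12 largest falls by the same rule were smaller and of mixed function. Besides Cytl1 (log2 -4.47 ± 0.42), a secreted cytokine-like protein of cartilage, they began with Artn (chromosome 4, 117926162 to 117929763, minus strand), which encodes artemin, a neurotrophic factor of the GDNF family. Artn was at 11.3, 11.6, 13.1 and 12.6 CPM at E17 and at 0.474, 0.333, 0.875 and 0.496 CPM at P1 (log2 -4.46 ± 0.43, adjusted p = 5.1e-09). Cnmd, the anti-angiogenic protein chondromodulin, went from 15.8 to 23.1 CPM to 0.547 to 1.27 CPM (log2 -4.34 ± 0.24). Hif3a (chromosome 7, 17031507 to 17062427, minus strand), a hypoxia-inducible factor alpha subunit, was at 185, 187, 176 and 179 CPM at E17 and at 17.6, 12.3, 15.2 and 13.8 CPM at P1 (log2 -3.62 ± 0.24, adjusted p = 2.1e-12). The spread within each stage was a small part of that difference.

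The other falls of this group were those of the kinase Stk32b (log2 -3.57 ± 0.28), the glycogen-targeting phosphatase subunit Ppp1r3c (-3.23 ± 0.25), the retinoic acid binding protein Crabp1 (-2.96 ± 0.31), the lactate exporter Slc16a3 (-2.88 ± 0.40), Tmem132e (-2.77 ± 0.34), the beta-globin Hbb-bt (-2.74 ± 0.58), the collagen VI chain Col6a6 (-2.53 ± 0.60) and the matrix protein Spon1 (-2.44 ± 0.30). Col6a6 was the least even of them: it was at 23.2, 17.3, 9.54 and 9.55 CPM at E17, and at P1 at 7.0 CPM in replicate 3 and 0.962 to 1.37 CPM in the other 3. Hbb-bt shares sequence with its near-identical neighbour Hbb-bs, so the count of each copy is uncertain.

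By share of the library the largest rises among called genes were mostly of myelin genes. Pmp22, a protein of compact myelin whose dosage causes the neuropathy CMT1A, was at 857, 911, 937 and 943 CPM at E17 and at 6342, 8757, 6501 and 9161 CPM at P1 (log2 3.08 ± 0.14). Mbp, myelin basic protein, went from 1032 to 1209 CPM to 4420.5, 8611, 7409 and 10583 CPM (log2 2.80 ± 0.21), again lowest in P1 replicate 1. The next were Prx (periaxin, 577 ± 47.5 to 3697 ± 996 CPM), Secisbp2l (492 ± 19.1 to 2211 ± 239), Cldn19 (71.0 ± 4.59 to 1416 ± 185), Cnp (766 ± 31.3 to 2078 ± 371) and Itih5 (542 ± 20.6 to 1810.2 ± 118), the last of which encodes a hyaluronan-binding protein of the matrix. The largest losses of share among called genes were those of Postn (periostin, 4432 ± 214 to 1536 ± 239 CPM), Tnc (tenascin C, 775 ± 57.7 to 181 ± 19.6) and the imprinted gene Mest (776 ± 82.0 to 387 ± 62.0). Ncam1, Ngfr, Olfml2a, Akap12 and Apoe followed, with log2 changes between -1.02 and -1.33. Postn and Tnc are matrix proteins of growing connective tissue and of nerve repair. Mest (log2 -1.0 ± 0.17) and Olfml2a (-1.02 ± 0.15) lay at the fold minimum, and leaving out E17 replicate 1 or P1 replicate 2 or 4 put Mest below it, as did leaving out E17 replicate 4 or P1 replicate 2 for Olfml2a. Mest overlaps Copg2 on the other strand.

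In 3 genes no E17 library had more than 3 counts while the P1 mean was at least 5 CPM, and no gene showed the reverse. S100a3, a calcium-binding protein, had 1, 0, 1 and 3 counts at E17 and 264, 235, 278 and 342 at P1, a ratio of 159 with a 95% counting interval from 67.8 to 489.9. Its gene model overlaps Gm42674 on the same strand, and which of the 2 the reads belong to cannot be told from the counts. Cd96, an immunoglobulin superfamily receptor known from T and NK cells, had 1, 1, 1 and 0 counts at E17 and 182, 80, 144 and 158 at P1 (ratio 133, interval 45.4 to 649). The intervals are exact, cover counting error only and are wide because of the few counts at E17. The third gene carries a clone name. With a P1 mean of at least 2 CPM there were 14 such genes.

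Of 39 lists of genes by function or cell type, those of compact and of non-compact myelin had the largest shares of members called higher. The percentages given for a list are shares of its tested members and are to be read against the 6.31% of all genes tested that were higher at P1 and the 5.41% that were lower. Of the 10 genes tested in the compact myelin list, 6 rose (60%, against 6.31% of all genes tested) and 1 fell. Their median log2 change was 1.38, against 0.00 for all genes. The list is not confined to proteins of the compact sheath. Besides Pmp2, Pmp22, Mbp and Cnp the rises were those of Pllp (plasmolipin, 11.8 to 13 CPM at E17 and 209, 300.1, 263 and 332 CPM at P1, log2 4.47 ± 0.13) and of the tetraspanin Cd9 (log2 1.3 ± 0.12). Mal stayed under the fold minimum with a log2 change of 0.73 ± 0.11 (adjusted p = 1e-05), and Cmtm5 was at 112 CPM at both stages. The member that fell was Fabp7, the brain-type fatty acid binding protein that marks Schwann cell precursors (6.76 ± 0.818 to 2.14 ± 0.553 CPM). The summed level of the list was 5101 to 5481 CPM in the E17 libraries and 18069.7, 25519, 20848 and 27804 CPM at P1, so even the lowest P1 library was above every E17 library.

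For the 20 genes of non-compact myelin and the internode, the parts of the myelin sheath that keep cytoplasm and the stretch between nodes, 12 rose and none fell (60% and 0%; median log2 2.18). Without P1 replicate 1 these counts were the same. The rises were those of the junction genes Gjb1, Gjc3 (connexin 29, log2 1.90 ± 0.16), Cldn19 (4.32 ± 0.15) and Cdh1 (E-cadherin of the autotypic junctions, 4.06 ± 1.42 to 166 ± 16.8 CPM, log2 5.36 ± 0.18), of Prx and its partner Drp2 (dystrophin-related protein, 7.96 ± 1.2 to 114 ± 23.9 CPM), of the adhesion molecules Mag (117 ± 9.56 to 639 ± 152 CPM), Cadm2 (log2 3.76 ± 0.33) and Cadm3 (3.29 ± 0.14), of the scaffold Mpp6 (27.2 ± 3.47 to 318 ± 41.7 CPM), of Ncmap and of Ndrg1. Cadm1, Cadm4, Dlg1, Nectin1 and Patj, which belong to the same adhesion and polarity complexes, were not called, and Cadm4 was at 1009.6 ± 111 and 948 ± 276 CPM. The Cadm genes of the internode had log2 changes of -0.34 ± 0.12 (Cadm1), 3.76 ± 0.33 (Cadm2), 3.29 ± 0.14 (Cadm3, which overlaps Ackr1) and -0.09 ± 0.24 (Cadm4).

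Of 20 genes of the node and paranode, the gaps in the sheath where sodium channels sit and the loops that flank them, 6 rose and 1 fell (30% and 5%, the latter near the share of all genes), with a median log2 change of -0.04. Besides Gldn, Nfasc, whose glial form anchors the paranodal loops, was at 2.25, 1.48, 2.48 and 2.39 CPM at E17 and at 67.6, 96.3, 71.9 and 107 CPM at P1 (log2 5.31 ± 0.16). Nrcam (log2 1.17 ± 0.19) and Ezr (ezrin, 1.15 ± 0.11) also rose, while Msn, Rdx and Slc9a3r1, which like ezrin belong to the Schwann cell microvilli at the node, were not called (log2 -0.11 ± 0.07, 0.08 ± 0.18 and -0.42 ± 0.20). Of the potassium channels, Kcna1 rose from 35.0 ± 6.34 to 278 ± 17.1 CPM and Kcna2 from 319 ± 12.9 to 641 ± 57.7 CPM. Cntn1, an adhesion molecule of the axonal side of the paranode that immature glia also make, fell from 206 to 222 CPM to 69.0 to 96.5 CPM (log2 -1.35 ± 0.30). Its axonal partner Cntnap1 was at 8.28 ± 0.527 and 4.78 ± 0.696 CPM (log2 -0.79 ± 0.19, not called), and the nodal sodium channel Scn8a at 20.6 ± 2.35 and 11.1 ± 1.02 CPM (not called). Without P1 replicate 1, 5 members rose and 2 fell.

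**Figure D2:**
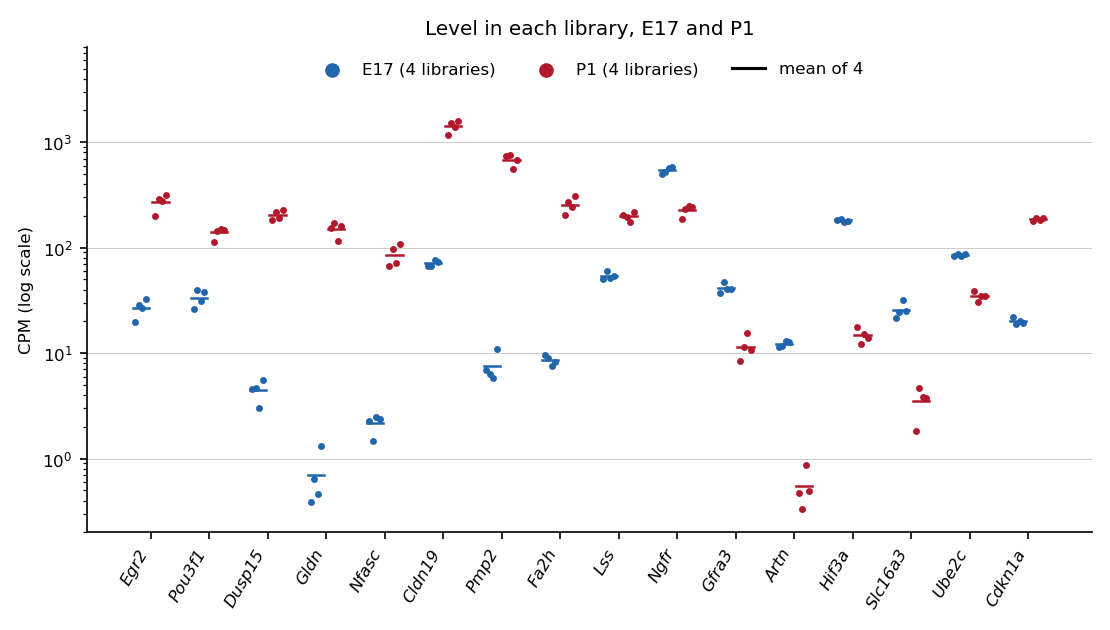
CPM in each of the 4 E17 libraries (blue) and 4 P1 libraries (red) for 16 named genes, on a log scale, with a bar at the mean of 4. For each of these genes all P1 libraries lie on one side of all E17 libraries, with the widest gap for Gldn, from at most 1.3 CPM at E17 to at least 115 CPM at P1. The genes were picked from called genes, some of them by a rule that required no overlap. Of all genes tested, 38.2% had no overlap either.

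Of 21 transcription factors and cofactors that promote myelination, 2 rose and none fell (9.52% and 0%, against 6.31% and 5.41% of all genes tested, so that the share of rises was near the background; the median was 0.01, and with 3 of 4 other scalings it was between -0.06 and 0.00). Egr2 was at 19.6, 28.8, 26.6 and 32.8 CPM at E17 and at 199, 291, 274 and 316 CPM at P1 (log2 3.32 ± 0.17, adjusted p = 6.5e-15), so that every P1 library lay far above the highest E17 value. Pou3f1 went from 26.0 to 39.3 CPM to 113 to 151 CPM (log2 2.05 ± 0.21). The related Pou3f2 (27.7 ± 1.78 to 47.9 ± 5.11 CPM, log2 0.79 ± 0.21) and Tead1 (584 ± 29.2 to 969.7 ± 66.7 CPM, 0.73 ± 0.17) passed the p threshold but not the fold minimum. Sox10, Zeb2, Yy1, Nab1, Nab2 and the Hippo pathway effectors Yap1 and Wwtr1 were not called, with log2 changes between -0.21 and 0.34. Olig1, an oligodendrocyte factor in the list, had at most 3 counts in every E17 and P1 library.

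Of 19 genes described as holding myelination back, 8 fell and 1 rose (42.1% and 5.26%, the latter near the share of all genes; median log2 -0.82). The falls included the Notch targets Hes1 (16.2 ± 1.27 to 6.62 ± 1.65 CPM), Hey1 (32.7 ± 1.5 to 16.3 ± 0.831) and Hey2 (4.72 ± 0.977 to 0.291 ± 0.353, log2 -3.98 ± 0.43), the inhibitors of differentiation Id1 and Id3, the progenitor factor Sox11 (15.2 to 18 CPM at E17 and 5.04 to 6.23 CPM at P1) and the RNA-binding protein Zfp36l1 (log2 -1.40 ± 0.16). Pax3 was called lower at under 1 CPM with overlapping libraries. Jun, a brake on the myelin program, went from 41.5 ± 3.62 to 21.7 ± 2.61 CPM, under the fold minimum (log2 -0.93 ± 0.13, adjusted p = 3.6e-06), while Sox2 (19.5 ± 0.355 and 17.4 ± 0.909 CPM) and Notch1 were not called. Id2 and Id4 had log2 changes of 0.59 ± 0.12 and 0.43 ± 0.23, opposite in sign to Id1 and Id3. The riser was the phosphatase gene Dusp15, at 4.62, 4.70, 3.03 and 5.53 CPM at E17 and at 182, 218, 190.0 and 229.9 CPM at P1 (log2 5.53 ± 0.16). Without P1 replicate 1, 6 members fell.

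Of 15 markers of the immature Schwann cell, 9 fell and 1 rose (60% and 6.67%, the latter near the share of all genes; median log2 -1.18). Those with the largest log2 falls were Gfra3, a co-receptor for artemin (41.2 ± 4.09 to 11.5 ± 2.89 CPM, log2 -1.84 ± 0.25), Gfap, at under 1 CPM at both stages, and Fabp7. The neurotrophin receptor Ngfr was at 504, 522, 565 and 583 CPM at E17 and at 186, 231, 246 and 241 CPM at P1 (log2 -1.27 ± 0.15). The adhesion genes Ncam1 (610.0 to 678 CPM at E17 and 243 to 284 CPM at P1), L1cam, Chl1 and Cdh2 (N-cadherin, log2 -1.55 ± 0.13) fell by similar factors. L1cam overlaps Arhgap4 on its strand. Erbb4, a neuregulin receptor, was called higher at 1.29 ± 0.149 and 3.07 ± 0.517 CPM, and Nes, Vim and Cd44 were not called, with nestin at 279.6 ± 9.50 and 511 ± 42.8 CPM (log2 0.87 ± 0.13).

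Of 26 signals between axon and Schwann cell, 1 was called in each direction (3.85% each, near the shares of all genes tested of 6.31% and 5.41%): Gli2, a transcription factor of the hedgehog pathway, fell from 15.8 ± 1.49 to 6.32 ± 2.11 CPM, and Nrg1 was called higher at under 1 CPM with overlapping libraries. The call of Nrg1 was lost when any of 5 single libraries (E17 replicates 1, 3 and 4, P1 replicates 2 and 3) was left out, and 2 members fell without P1 replicate 3. Erbb2 and Erbb3, Lgi4 with its receptor Adam22, the Adgrg6 ligand Prnp, Dhh and the TGF-beta receptor Tgfbr1 had log2 changes between -0.18 and 0.42 and were not called. Adgrg6 itself was at 373 ± 12.1 and 229 ± 25.5 CPM (log2 -0.71 ± 0.16, adjusted p = 0.0012, under the fold minimum).

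Of 21 neurotrophic factors and receptors tested, 7 fell and 2 rose (33.3% and 9.52%). Both GDNF-family ligands with appreciable levels at E17 fell: besides Artn, Gdnf went from 4.55 ± 0.912 to 0.451 ± 0.266 CPM (log2 -3.32 ± 0.48). Of their co-receptors, Gfra2 fell from 114 ± 6.30 to 42.7 ± 5.16 CPM and Gfra3 as given above, Gfra1 had a log2 change of -0.74 ± 0.09 without being called, and the shared signalling receptor Ret was called lower at 3.24 ± 1.63 and 1.25 ± 0.957 CPM with overlapping libraries. Ligand and co-receptor thus fell together for artemin. Cntf, ciliary neurotrophic factor, rose from 1.95 to 2.48 CPM to 5.43 to 9.79 CPM (log2 1.85 ± 0.15), while its receptor Cntfr fell (log2 -1.76 ± 0.32). Cntf overlaps Zfp91 on its strand. Ntrk2 was at 65.4 ± 2.86 and 63.2 ± 5.66 CPM, and Ntf5, Nrtn and Pspn had at most 3 counts in every E17 and P1 library.

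The cholesterol pathway moved mostly below the fold minimum. Of 27 genes of cholesterol synthesis and uptake, 7 rose (25.9%) and none fell, 25 had a positive log2 change, and the median was 0.67. Without the fold minimum 16 rose. Called genes sat at several steps, among them the condensing enzyme Hmgcs1 (log2 1.02 ± 0.20), Mvd, Idi1, lanosterol synthase Lss (50.8, 60.3, 51.6 and 53.8 CPM at E17 and 202, 197, 174 and 219 CPM at P1, 1.87 ± 0.12) and Hsd17b7 (1.45 ± 0.14). Of the regulators in the list, Insig1 (log2 0.95 ± 0.11, adjusted p = 1.4e-07) and Scap (0.73 ± 0.20, adjusted p = 0.007) passed the p threshold but not the fold minimum. The sterol-responsive factors Srebf2 (204 ± 14.1 and 215 ± 54.0 CPM) and Srebf1 (62.3 ± 5.45 and 51.1 ± 18.4 CPM), members of the transcription factor list, were not called. The lowest summed level at P1, 3896.5 CPM, was above the highest at E17, 2617 CPM. With library size alone 4 members were called.

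Of 30 genes of fatty acid and sphingolipid synthesis, 9 rose and none fell (30% and 0%; median log2 0.52). The rises were found in chain elongation (Elovl7, 9.51 to 15.5 CPM at E17 and 132 to 177 CPM at P1, log2 3.62 ± 0.20; Elovl1, 1.74 ± 0.13; Elovl6, 1.35 ± 0.18), in the galactolipid branch (Fa2h, fatty acid 2-hydroxylase, 9.68, 8.98, 7.60 and 8.17 CPM at E17 and 204, 268, 246 and 307 CPM at P1, 4.90 ± 0.20; Ugt8a, which makes galactosylceramide, 2.17 ± 0.19), in the first steps of sphingolipid synthesis (Sptlc2 and Kdsr), in acetyl-CoA carboxylase Acaca (1.2 ± 0.09) and in the phosphatidate phosphatase Lpin1 (2.36 ± 0.14). Other members of the same steps were not called, among them Elovl5 (-0.45 ± 0.14), Gal3st1, Cers2, Cers4, Sptlc1 and Degs1 (0.46 to 0.71). The desaturases Scd1, Scd2, Fads1 and Fads3 and fatty acid synthase Fasn were not called, with Scd2 at 2516 ± 109.6 and 2696 ± 211 CPM, and Fads2 had a log2 change of -0.74 ± 0.17 (adjusted p = 0.0011, under the fold minimum).

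Of 25 genes of fatty acid oxidation and ketone use, 5 rose and 1 fell (20% and 4%, the latter near the share of all genes; median log2 0.42). Cpt1a, the gatekeeper of mitochondrial fatty acid import, was at 84.6 to 91.4 CPM at E17 and at 196, 249, 203 and 217 CPM at P1 (log2 1.29 ± 0.09, adjusted p = 1.3e-11), Angptl4, a fasting-induced lipase inhibitor, went from 6.94 to 9.24 CPM to 27.0 to 45.5 CPM (2.09 ± 0.21), and Acaa2 and Ucp3 rose as well. Acads was called with overlapping libraries. The ketone gene Bdh1 (0.80 ± 0.14) passed the p threshold only, and the pyruvate dehydrogenase kinase Pdk4 fell from 4.87 ± 0.721 to 2.22 ± 0.327 CPM.

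Of 25 glycolysis and lactate genes, 8 fell and 2 rose (32% and 8%, the latter near the share of all genes; median log2 -0.57). The falls took in the glucose transporter Slc2a1 (58.4, 60.6, 70.5 and 61 CPM at E17 and 16.3, 23.7, 28.2 and 24 CPM at P1, log2 -1.44 ± 0.23), Hk2, Pfkl (-1.59 ± 0.25), Tpi1, Pgk1, Pgam1, Pdk1 and the lactate exporter Slc16a3. Gapdh (log2 -0.55 ± 0.24, adjusted p = 0.083), Aldoa, Eno1, Pkm and Ldha had negative changes and were not called. Ldhb, the lactate dehydrogenase subunit of oxidative tissues, went the other way, from 105 to 118 CPM to 262 to 332 CPM (log2 1.45 ± 0.16), and so did Aldoc. Pfkl, Slc2a1 and Slc16a3 were lowest in P1 replicate 1, and without that library the count of falls in the list was also 8.

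Of 25 hypoxia response genes, 11 fell and 1 rose (44% lower, against 5.41% of all genes; median log2 -0.47). Ddit4, an inhibitor of mTORC1 induced by low oxygen, was at 83.4, 75.9, 81.4 and 79.5 CPM at E17 and at 17.1, 9.37, 17.6 and 15.4 CPM at P1 (log2 -2.43 ± 0.23). Vegfa went from 44.5 ± 3.30 to 12.8 ± 2.34 CPM, and the prolyl hydroxylases Egln3 (-1.67 ± 0.31), P4ha1 (-1.43 ± 0.11) and P4ha2 (-1.85 ± 0.18), Loxl2, Ankrd37, which overlaps Ufsp2, Stc2, Slc2a1, Pdk1 and Hif3a fell as well. Other genes induced by low oxygen were not called, among them Bnip3 (16.1 ± 0.768 and 14.5 ± 1.30 CPM), Adm, Car9 and Pfkfb4, and Hif1a itself was at 113 ± 3.5 and 136 ± 20.6 CPM. The riser, Ndrg1, is also a gene of myelinating Schwann cells whose loss causes a demyelinating neuropathy, and was at 231 to 238 CPM at E17 and 610.5 to 725 CPM at P1. Without P1 replicate 1 again 11 members fell.

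**Figure D3:**
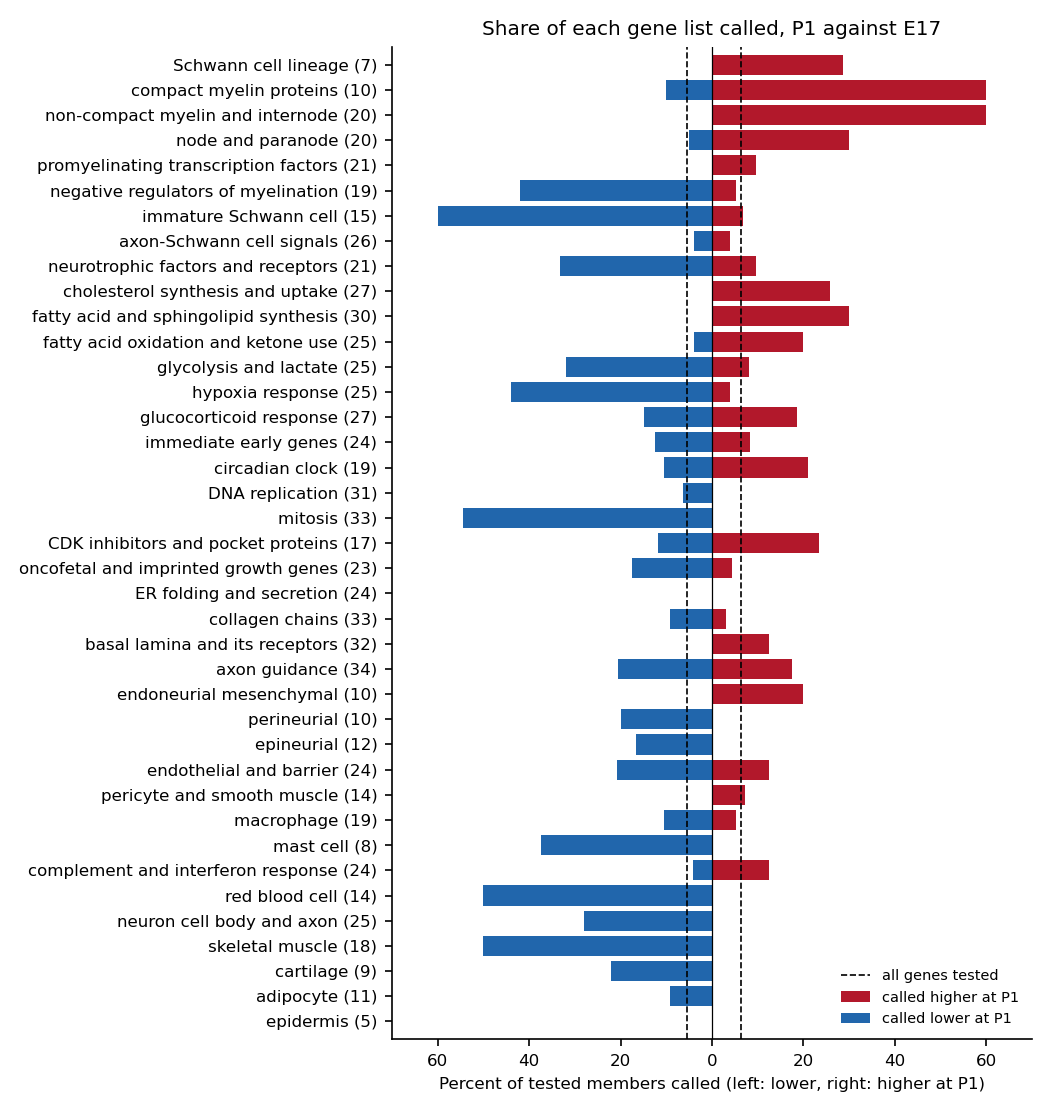
Percent of tested members of each of the 39 gene lists called higher (right, red) and lower (left, blue) at P1, with the number tested in parentheses; dashed lines mark the shares of all genes tested, 6.31% higher and 5.41% lower. The bars reach furthest right for compact and non-compact myelin (60% each) and furthest left for immature Schwann cell markers (60%) and mitosis (54.5%).

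Of 27 glucocorticoid response genes tested, 5 rose and 4 fell (18.5% and 14.8%), with a median of -0.02. Sgk1 (11.8 ± 1.44 to 108 ± 33.5 CPM), Cdkn1a, the metallothioneins Mt1 and Mt2 (1.80 to 2.20 CPM at E17 and 8.78, 21.5, 22.0 and 32.6 CPM at P1, log2 3.37 ± 0.44) and Fam107a (0.582 to 1.3 to 10.4 to 19.7 CPM, log2 4.04 ± 0.24) rose. Fkbp5, a standard target of the glucocorticoid receptor, fell from 66.9 to 72.3 CPM to 26.2 to 29.5 CPM (log2 -1.3 ± 0.22), and so did Ddit4, Pdk4 and, at under 1 CPM, Zbtb16. The receptor gene Nr3c1 was at 89.4 ± 2.08 and 79.8 ± 8.78 CPM.

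Of 24 immediate early genes tested, which are induced within minutes of a stimulus such as dissection, 2 rose and 3 fell (8.33% and 12.5%, against 6.31% and 5.41% of all genes tested). Fos (6.03 ± 1.80 and 6.76 ± 1.08 CPM), Egr1 (26.9 ± 9.04 and 15.2 ± 4.23), Ier2 and Nr4a1 were not called. Atf3, an injury-linked factor, was at 87.6, 99.1, 94.8 and 110.0 CPM at E17 and at 23.3, 18.7, 21.5 and 18.9 CPM at P1 (log2 -2.25 ± 0.18), Fosl2 and Maff fell, and Myc rose from 4.93 to 6.60 CPM to 13.9 to 19.8 CPM; the other riser was Egr2. Of 19 circadian clock genes, 4 rose and 2 fell (21.1% and 10.5%). Nr1d1 (2.33 ± 0.359 to 11.5 ± 3.66 CPM), Per3 (13.4 ± 2.68 to 33.9 ± 6.05) and Dbp (2.09 ± 0.208 to 6.96 ± 1.42) rose, Bhlhe40 fell (log2 -1.29 ± 0.13), and the core gene Arntl was at 15.2 ± 1.66 and 21.7 ± 2.05 CPM (not called). The time of day of sampling is not given in the sources used here and can set the level of clock genes. Nr1d1 overlaps Thra and Dbp overlaps Sphk2, each on the other strand. Nfil3, the second fall, lay at the fold minimum (log2 -1.04 ± 0.32) and was lost without P1 replicate 2 or 4.

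Of 33 mitosis genes, 18 fell and none rose (54.5% lower, against 5.41% of all genes), all 33 had a negative log2 change and no overlap between the stages, against 38.2% of all genes tested, and the median was -1.05. The list thus sat at the fold minimum: 32 members fell when no minimum was set and 25 without P1 replicate 1. That library had the highest summed level of the list at P1, 3290.3 CPM, against 2499 to 2604 CPM in the others and 5455 to 5582 CPM at E17. Members with the largest falls were Ccnf, cyclin F (67.1, 66.7, 64.6 and 69.4 CPM at E17 and 24.6, 23.7, 26.7 and 26.2 CPM at P1, log2 -1.40 ± 0.21), and Ube2c, the ubiquitin-conjugating enzyme of the anaphase-promoting complex (83.2, 87.8, 82.9 and 87.2 CPM and 38.6, 30.3, 34.5 and 34.9 CPM, -1.30 ± 0.20). Mki67 and Top2a were just under the minimum with log2 changes of -0.95 ± 0.22 and -0.94 ± 0.17. Of 31 DNA replication genes all had a negative change (median -0.72), but only Cdc6 (log2 -1.2 ± 0.25) and Ccne2 (-1.03 ± 0.22) fell at the fold minimum (6.45%, near the share of all genes), against 26 without it. Gins4 (-0.07 ± 0.13), Tk1, Cdt1 and Orc1 were among the 5 that did not pass either way. Leaving out E17 replicate 2 or 4 or P1 replicate 4 reduced the 2 to 1. Without P1 replicate 1 the count was 3, and with library size alone 6. Ccne2 overlaps Ints8 on the other strand.

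Promoters of mitotic genes are known for CCAAT boxes and for the cell cycle homology element TTTGAA, through which they are repressed together outside the cell cycle. In RefSeq windows of 300 bases around the start site (GRCm38.p6, from 250 bases before to 50 after it), searched on both strands, 24 of 29 windows of 27 mitosis genes held CCAAT (82.8%) and 22 held TTTGAA (75.9%), against 37.4% and 17.9% of all windows. Over the whole comparison TTTGAA was in 12.7% of the windows of genes called higher and 17.6% of those called lower, against 12.3% for all genes tested, and CCAAT in 35.2% and 37.9%, against 37.3%. These differences were not tested. Both named genes of the list are shown because they hold several matches; capitals mark CCAAT (or ATTGG on the other strand) and TTTGAA (or TTCAAA), and where 2 matches overlap on opposite strands each was counted. The Ube2c window (chr2:164769679-164769978, plus strand) had 6 CCAAT matches and 1 TTTGAA match, and the Ccnf window (chr17:24251360-24251659, minus strand) had 2 of each. A match describes the letters and is not evidence of binding.
Ube2c: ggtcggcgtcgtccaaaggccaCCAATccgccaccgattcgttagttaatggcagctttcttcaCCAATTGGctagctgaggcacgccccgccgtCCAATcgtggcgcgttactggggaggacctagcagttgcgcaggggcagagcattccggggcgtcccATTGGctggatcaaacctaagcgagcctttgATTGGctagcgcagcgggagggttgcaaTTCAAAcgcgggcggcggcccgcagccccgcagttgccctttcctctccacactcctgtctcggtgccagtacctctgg
Ccnf: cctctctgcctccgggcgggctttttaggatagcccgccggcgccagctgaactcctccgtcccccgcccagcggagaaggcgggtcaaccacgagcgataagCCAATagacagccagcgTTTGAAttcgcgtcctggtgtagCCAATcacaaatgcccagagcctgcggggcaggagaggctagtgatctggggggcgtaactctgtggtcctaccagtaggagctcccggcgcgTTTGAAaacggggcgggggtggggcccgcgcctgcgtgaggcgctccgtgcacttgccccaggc

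CCAAT was in 17 of 25 windows of the cholesterol list (68%), the E-box CACGTG in 24% of them against 7.15% of all windows, and the sterol response letters TCACNCCAC in 1 window (4%, against 1.24%). Of the windows of genes called higher, 8.89% held the EGR core GCGTGGG and 17.7% the SOX core ACAAAG, against 5.86% and 15.1% for genes called lower, 8.03% and 14.3% for all genes tested and 5.04% and 18.7% for all windows, without a test of these differences.

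The Cip/Kip inhibitors of cyclin-dependent kinases rose together. Of 17 CDK inhibitors, pocket proteins and G1 regulators, 4 rose and 2 fell (23.5% and 11.8%). Cdkn1a (p21) was at 22.2, 18.7, 20.3 and 19.2 CPM at E17 and at 178, 189, 183 and 191 CPM at P1 (log2 3.20 ± 0.15), Cdkn1b (p27) went from 55.6 to 65.0 CPM to 222 to 266 CPM (1.96 ± 0.12), Cdkn1c (p57) from 137 to 158 CPM to 292 to 380.0 CPM (1.25 ± 0.19), and Rb1, which overlaps other genes on the other strand, rose by 1.11 ± 0.28. The spread of Cdkn1a within a stage was small in both. Ccnd2 (log2 -1.08 ± 0.17) and Cdk6 (-1.04 ± 0.16) fell at the fold minimum, and the calls of Cdk6 and Ccnd2 were lost without P1 replicate 3 and P1 replicate 4. Ccnd1 was at 1181 ± 55.4 and 899 ± 94.2 CPM (not called), and the INK4 genes Cdkn2c and Cdkn2d had changes of -0.53 ± 0.15 and -0.50 ± 0.17.

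Of 23 oncofetal and imprinted growth genes tested, 4 fell and 1, Cdkn1c, rose (17.4% and 4.35%, the latter near the share of all genes; median log2 -0.53). Igf2bp1, an RNA-binding protein of fetal tissues, was at 35.1, 36.8, 30.7 and 36.9 CPM at E17 and at 6.67, 7.41, 8.24 and 7.01 CPM at P1 (log2 -2.25 ± 0.23), while its relatives Igf2bp2 (-0.20 ± 0.12) and Igf2bp3 (-0.70 ± 0.18) were not called. Peg10 (79.4 to 96.5 CPM at E17 and 33.6 to 50.2 CPM at P1), Rtl1 and Mest were the other falls. H19 (1519.5 ± 107 and 1086 ± 195 CPM), Igf2, Dlk1 and Meg3 were not called, with log2 changes between -0.27 and -0.53. Of 24 genes of protein folding in the endoplasmic reticulum, none was called by edgeR (11 passed the p threshold without the fold minimum, 8 lower and 3 higher), and 1 was called lower without P1 replicate 4, with Hspa5 at 921 ± 21.1 and 696 ± 91.4 CPM.

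Of 33 collagen chains, 1 rose and 3 fell (3.03% and 9.09%, near the 6.31% and 5.41% of all genes tested; median log2 -0.07). Col3a1, Col1a1 and Col1a2 had log2 changes of -0.06 ± 0.20, -0.28 ± 0.26 and -0.22 ± 0.15. The riser was Col28a1, a chain made by Schwann cells, at 99.6 to 133 CPM at E17 and 349.7 to 423 CPM at P1 (log2 1.75 ± 0.31). The falls were those of the collagen IX chains Col9a1 (-1.2 ± 0.26) and Col9a3 (103, 111, 138 and 116 CPM to 21.9, 42.2, 49.8 and 46.1 CPM, -1.55 ± 0.22) and of the neuronal transmembrane collagen Col25a1 (6.62 ± 0.678 to 1.21 ± 0.164 CPM, -2.44 ± 0.31). Of 32 genes of the basal lamina and its receptors, 4 rose and none fell (12.5% and 0%): Utrn (utrophin, 534 to 584 CPM at E17 and 1476 to 1667 CPM at P1, log2 1.49 ± 0.23), Dmd (1.08 ± 0.23), Lama1 (4.10 ± 0.499 to 10.5 ± 1.90 CPM) and Lamc3 (0.378 ± 0.0848 to 3.66 ± 1.03 CPM). Without P1 replicate 1, 3 rose and 1 fell. Dystroglycan, Dag1, which links them to laminin, went from 821 ± 43.9 to 1533 ± 189 CPM (0.90 ± 0.14, under the fold minimum). The main laminin chains of the Schwann cell, Lama2, Lamb1 and Lamc1, were not called (log2 -0.05 ± 0.18, -0.06 ± 0.13 and -0.50 ± 0.16), and Lama4 had a change of -0.87 ± 0.12.

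Of 34 axon guidance genes, 6 rose and 7 fell (17.6% and 20.6%; median log2 -0.61). Sema6d (358 to 391 CPM at E17 and 848 to 989.8 CPM at P1, log2 1.33 ± 0.25), Sema5a (1.28 ± 0.27), Sema3g, the receptors Plxna1 and Unc5c (1.64 ± 0.36) and the repellent Slit2 (36.3 ± 1.69 to 88.9 ± 11.5 CPM) rose. The Slit receptors Robo1 (6.06 ± 0.695 to 2.27 ± 0.503 CPM) and Robo2 (18.3, 19.2, 16.2 and 20.1 CPM to 5.58, 5.04, 4.52 and 4.47 CPM, -1.91 ± 0.26) fell, as did Plxna4 (-1.46 ± 0.19), Epha7, Efna5, Sema3c and, at about 1 CPM with overlapping libraries, Sema4f. Of the other Slit ligands, Slit3 (9.94 ± 1.53 and 6.42 ± 2.21 CPM, log2 -0.63 ± 0.23) and Slit1, at under 1 CPM, were not called.

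Of 24 endothelial genes, 5 fell and 3 rose (20.8% and 12.5%, against 5.41% and 6.31% of all genes tested). The angiogenic receptors Flt1 (23.2 ± 2.93 to 11.1 ± 1.84 CPM) and Tek, Aplnr (-1.14 ± 0.18), Sox18 and the fenestral protein Plvap (-1.41 ± 0.42) fell. The barrier transporter Mfsd2a rose from 4.07 to 7.08 CPM to 15.2 to 18.7 CPM (log2 1.68 ± 0.19). Slc7a5 (1.04 ± 0.19) lay at the fold minimum and Ocln was at under 1 CPM, and without P1 replicate 3 the count of rises was 1. The summed level of the list was 529.6 to 621 CPM at E17 and 355 to 395 CPM at P1. Of 14 pericyte and smooth muscle genes, only Tagln was called, a share of 7.14% near that of all genes (2.71 ± 0.238 to 8.93 ± 1.22 CPM, overlapping Pcsk7), and Pdgfrb was at 70.8 ± 3.39 and 97.7 ± 17.3 CPM. Without E17 replicate 1, 2 pericyte genes rose.

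Of 19 macrophage genes, 2 fell and 1 rose (10.5% and 5.26%, near the 5.41% and 6.31% of all genes tested; median log2 -0.01). Ccr2, a receptor of recruited monocytes, was at 17, 16.5, 14.1 and 15.0 CPM at E17 and at 6.12, 3.37, 4.19 and 4.47 CPM at P1 (log2 -1.78 ± 0.27), and F13a1 fell (-1.25 ± 0.18). Cx3cr1 (25.1 ± 3.24 and 25.4 ± 3.56 CPM), Csf1r, Adgre1 and Cd68 were not called. Pf4 rose at 1.10 ± 0.265 and 3.70 ± 1.46 CPM, and the count of rises was 2 or 3 without any one of E17 replicate 1 and P1 replicates 2, 3 and 4. Of 24 complement and interferon genes 3 rose and 1 fell (12.5% and 4.17%, the latter near the share of all genes; median log2 0.50, 19 positive), with summed levels of 395 to 423 CPM at E17 and 473 to 495 CPM at P1. C1ra was called at 2.01 to 2.95 and 6.48 to 8.24 CPM (log2 1.59 ± 0.16), and C3 fell from 2.22 ± 0.349 to 0.383 ± 0.0762 CPM. Without P1 replicate 3, 2 of them fell.

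In the endoneurial mesenchymal list 2 of 10 rose (20%), Osr2 (4.97 ± 0.293 to 11 ± 3.79 CPM) and Aldh1a1 at about 1 CPM with overlapping libraries, and 1 rose without P1 replicate 4. In the perineurial list 2 of 10 fell (20%), among them Slc2a1, and in the epineurial list 2 of 12 (16.7%), Opcml (17.5 ± 1.27 to 7.32 ± 1.63 CPM) and Pcolce2. The perineurial count was 1 without E17 replicate 4, and the epineurial count ran from 1 to 5 when single libraries were left out (1 without E17 replicate 2 or 4 or P1 replicate 2 or 4, 5 without P1 replicate 3). Pdgfra was at 127 ± 18.7 and 123 ± 11.9 CPM, and the perineurial junction gene Cldn1 at 54.2 ± 9.32 and 58.5 ± 11.7 CPM.

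Summed levels of the red blood cell, skeletal muscle and mast cell lists were higher in every E17 library than in any P1 library. Of 14 red blood cell genes tested, 7 fell and none rose (50% and 0%; median log2 -2.09). Hba-a2 was at 45.8, 63.0, 59.1 and 124 CPM at E17 and at 4.56, 18.7, 20.7 and 13.2 CPM at P1. The summed level was 393 to 1037 CPM at E17, highest in replicate 4, and 102 to 208 CPM at P1. Without P1 replicate 1, 5 red blood cell genes fell. Of 18 skeletal muscle genes tested, 9 fell and none rose (50% and 0%), with summed levels of 19.8 to 49.3 CPM at E17 and 12.9 to 17.8 CPM at P1. Without P1 replicate 1, 6 muscle genes fell. Mylpf, a myosin light chain of fast muscle, was at 5.83, 3.12, 2.13 and 10.6 CPM at E17 and between 0.510 and 1.29 CPM at P1 (log2 -2.71 ± 0.68). The list members Myh1, Myh2, Myh4, Myod1 and Pax7 had at most 3 counts in every E17 and P1 library, and the embryonic myosin Myh3 was at 4.24 ± 3.40 and 0.0664 ± 0.0468 CPM. Of 8 mast cell genes, 3 fell (Hdc, Cma1 and Cpa3; 37.5%), all with overlapping libraries, and E17 replicate 4 held most of their counts, with 16.8 CPM of Hdc against 0.310 to 2.90 CPM in the other E17 libraries. Without that library 1 of them fell, and 5 members fell without P1 replicate 3.

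Of 25 genes of the neuronal cell body and axon, 7 fell and none rose (28% and 0%, against 5.41% and 6.31% of all genes tested). The count of falls was 4 without E17 replicate 3 or P1 replicate 1 or 2. The intermediate filament genes Prph (9.86 ± 1.81 to 4.06 ± 1.43 CPM) and Nefl (54.2 ± 12.5 to 22.5 ± 1.5 CPM, overlapping Nefm) fell, and Scn9a was at 51.2, 51.7, 41.6 and 48.3 CPM at E17 and at 13, 11, 9.52 and 9.18 CPM at P1 (log2 -2.17 ± 0.46). Chat and Scn10a, which mark motor and sensory cell bodies, had at most 3 counts in every E17 and P1 library. In the adipocyte list only Fabp4, which endothelial cells and macrophages also make, was called (63.3 ± 9.46 to 12.4 ± 1.51 CPM; 9.09% of members), and the adipocyte genes Plin1, Cidec, Lep and Retn had at most 3 counts in every E17 and P1 library. In the cartilage list Cnmd and Col9a1 fell (22.2%), while Matn1, Snorc and Ucma had at most 3 counts in each of these 8 libraries. The epidermis list had no call, and Krt5, Krt14 and Dsg3 had at most 3 counts in each of them. The part of these other tissues in the falls given above was not tested.

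**Figure D4:**
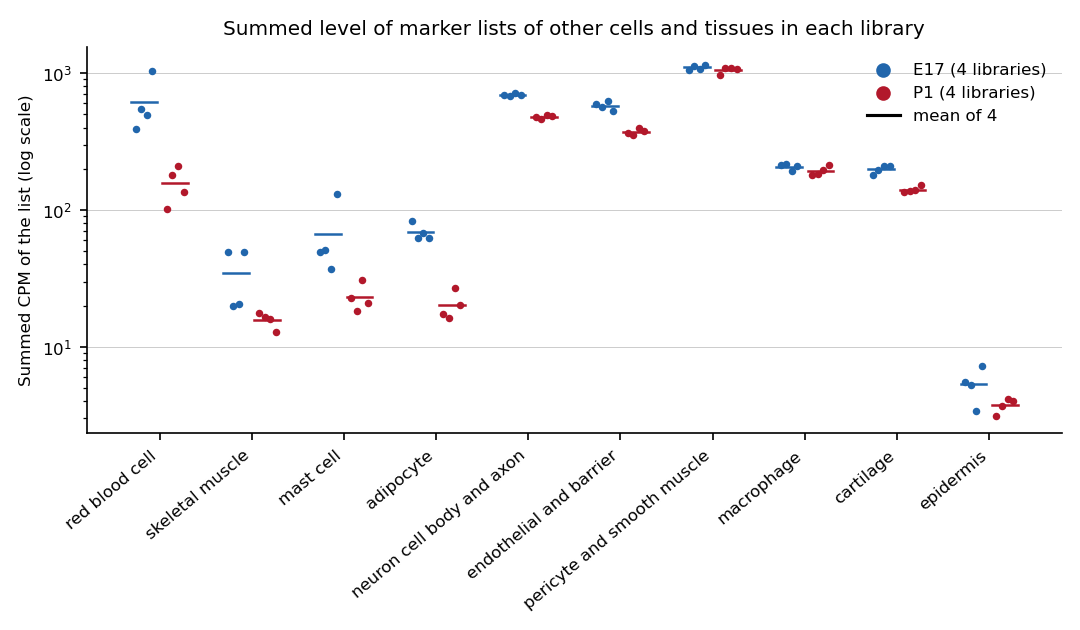
Summed CPM of marker lists of other cells and tissues in each E17 (blue) and P1 (red) library, on a log scale, with a bar at the mean of 4. Summed red blood cell, mast cell and neuron lists are higher in every E17 library than in any P1 library (393 to 1037 against 102 to 208 CPM for red blood cells), while pericyte and macrophage lists overlap.

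The genes called between E17 and P1 did not follow 1 course afterwards. As a later step that shares no library with this one, P14 was set against P5. Of the 1116 genes that rose at P1, 12.6% rose and 12.5% fell from P5 to P14, and of the 958 that fell, 13.7% rose and 14.7% fell, against 7.11% and 4.91% of all genes tested. Of the genes not called around birth, 6.31% rose and 3.77% fell from P5 to P14. These shares are a description without a test, and both sets moved in both directions. Fa2h went on from 256 CPM at P1 to 919 CPM at P14, Ndrg1 from 661 to 3397 CPM and Cntf from 8.04 to 345 CPM, and Ncmap from 236 to 1298 CPM. Other rises were passing: Emid1 was at 371 CPM at P1, 765 at P5 and 54.0 at P60, Abca12 at 21.3, 35.8 and 0.585 CPM, Itih5 at 1810.2 CPM at P1 and 542 at P60, the same as at E17, and Cdkn1c at 348 CPM at P1 and 45.4 CPM at P14. Rit2 and Nfasc had been present at E13 (11.2 and 74.3 CPM), were low at E17 (0.157 and 2.15 CPM) and were up again at P1, though the E13 libraries came from various nerves.

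Among the falls, Ube2c and Artn stayed low (4.18 and 0.131 CPM at P14) and Postn went on down (310.3 CPM at P14, 85.2 at P60). Apoe, the lipid carrier, was lowest at P1 (172 CPM) and was at 404 CPM at P14 and 542 CPM at P60, and Slc2a1 went from 23.0 CPM at P1 to 256 CPM at P60, above its E17 level of 62.6 CPM. Cnmd also returned, from 0.896 CPM at P1 to 35.5 CPM at P24. The fall around birth was thus not the end state of these 3 genes.

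**Figure D5:**
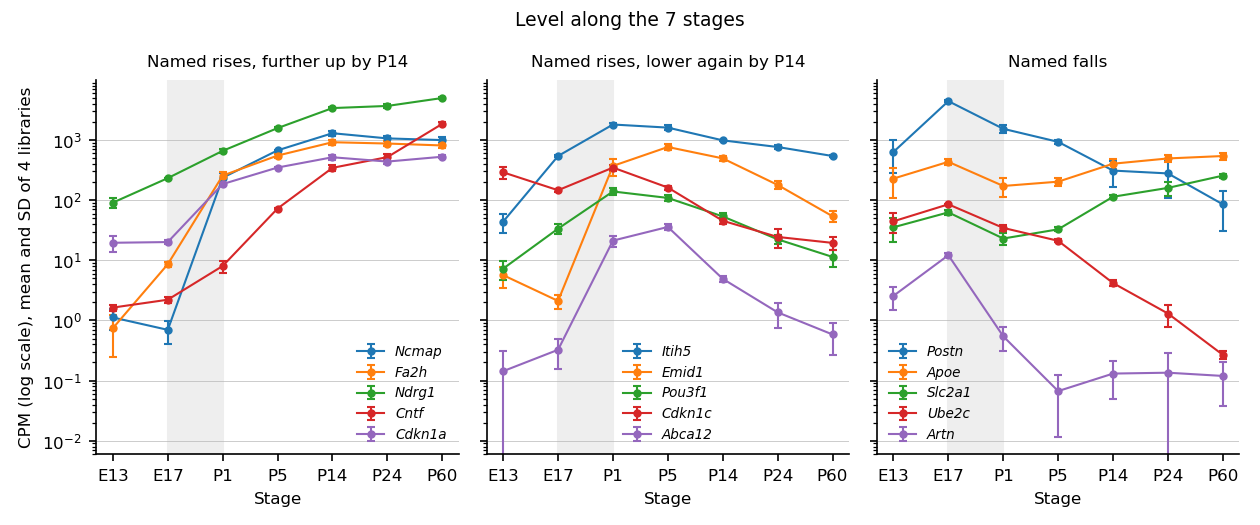
Mean CPM ± SD of 4 libraries at each of the 7 stages, on a log scale, for named genes that rose and went on rising by P14 (left), rose and were lower again by P14 than at P1 or P5 (middle), or fell (right); the grey band spans E17 to P1, and bars that reach 0 run off the axis. Apoe and Slc2a1 dip at P1 and return, while Ube2c and Artn do not.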

How the data were processed

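Raw gene counts of 28 libraries were deposited, and the authors had not normalized these counts. Per the labels and the study's methods, the authors prepared stranded poly-A libraries, sequenced single-end reads, aligned them with STAR (version 2.6.1c) and assigned reads to genes using featureCounts. The labels name a GRCm38 build, the methods a human build name, while the identifiers are mouse. How strand and reads with several alignments were treated is not given in the sources used here, so counts of overlapping genes and near-identical copies are uncertain.

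Of 41605 identifiers, 41519 matched GENCODE M21 (GRCm38), the source of symbols and coordinates. All 28 libraries entered 1 edgeR 4.0.16 quasi-likelihood fit (R 4.3.3) with stage as the only term, TMM scaling and filterByExpr (17700 genes), because 4 against 4 libraries estimate the spread weakly. Standard errors are the log2 change over the square root of F. Counting error at these depths matters for genes with few counts only. No 2 libraries of a stage held the same values (chi-square per degree of freedom from 5.21 to 82.5), and p-values measure the spread between these samples.

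Members, gene lists and tests were chosen with earlier results of these data known. Genes were named by rule: the 12 largest log2 rises and falls among called genes (at least 10 CPM, a library with over 3 counts at both stages, no overlap), the 8 largest changes in CPM each way among called genes, both without clone names, up to 2 called rises and falls per list with at least 5 CPM, and genes near 0 at E17. Other list members are examples chosen after their values were seen. The rule named 115 genes, and 1 of them, like some list members, is not reported here. Alternatives were DESeq2 size factors, library size alone, other filters, the Wald test of DESeq2 1.42.0, limma-voom (limma 3.58.1), other sample sets, a replicate block, no fold minimum, GC trends removed and each library left out.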

Additional observations from a re-analysis of the deposited data

Results flagged for a closer look

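In 308 groups of 4 libraries (2 stages for each named gene and each list sum), 15 had 1 library farther from the rest than Dixon's 95% limit, and chance alone gives about 1 in 20. P1 replicate 3 was high for Col6a6 (7.0 CPM, others 0.962 to 1.37), F13a1 (13 CPM, others 7.10 to 7.95), Cma1 (2.01 CPM, others 0 to 0.279) and the summed axon-Schwann cell signals (4679 CPM, others 4312 to 4347), and low for Sema6d (848 CPM, others 968 to 989.8). E17 replicate 4 was high for Hdc (16.8 CPM, others 0.310 to 2.90), Cma1 (28.8 CPM, others 0.155 to 3.90), the summed mast cell list (130.5 CPM, others 37.2 to 51.3) and Ndrg1 (238 CPM, others 230.5 to 231), and low for the summed endoneurial list (212 CPM, others 255 to 264). P1 replicate 1 was high for Cdc6 (21.2 CPM, others 13.4 to 14.7), Peg10 (50.2 CPM, others 33.6 to 35.9) and the summed mitosis list (3290.3 CPM, others 2499 to 2604), and low for the summed pericyte list (968 CPM, others 1076 to 1096). E17 replicate 3 was high for Unc5c (2.41 CPM, others 1.63 to 1.70).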

How the results depend on the processing

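Over 20 alternatives the number of genes called stayed within 1.5 times of 2074, except with no fold minimum, which gave 5225 (2678 genes higher at P1 and 2547 genes lower at P1). Leaving out single libraries gave 1880 to 2097 calls. The changes of 114 reported genes and 1 not reported kept their direction in all 2300 checks and their call in 2271. The other 29 concern Mest, Olfml2a, Nfil3, Ccne2, Ccnd2, Cdk6, Osr2 and Slc7a5, all near the fold minimum, and Cma1, whose adjusted p was 0.12 with limma-voom, 0.11 with the E17 and P1 libraries only and 0.15 without E17 replicate 4. Of 1560 checks of list counts 1453 stayed within 1.5 times and 107 moved, among them all those with no fold minimum given in the text. The genes near 0 at E17 numbered 14 with a minimum of 2 CPM.

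Same-numbered E17 and P1 libraries deviated together only weakly (correlations 0.142, 0.0903, 0.0897 and 0.0625), and E17 replicate 3 correlated best with P1 replicate 4. The replicate numbers were not without structure. Correlations were positive among replicates 1 and 2 and among replicates 3 and 4 (0.00338 to 0.197). Between these 2 sets all were negative (-0.186 to -0.0351). No label says what the sets stand for, and stage was kept as the only term. With the replicate number as a block 2106 genes were called, 2034 of them the same.

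Removing a GC trend within libraries gave 2218 or 2263 calls. Depth limits genes under about 1 CPM, and rises from near 0 are known only within wide intervals. Sex and time of day were not fitted, since the libraries carry no label of either, and pooling of embryos cannot be told apart from stage.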
